A study of Drosophila melanogaster with 4 samples.

Results

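Smc3 is one of the long coiled-coil proteins of cohesin, the complex whose ring encircles DNA, and the members described here are the regions called as enriched for Smc3 on the X chromosome of Drosophila melanogaster. They were chosen by position alone, as clusters on the sequence named X whose midpoint lay above position 1000000 on FlyBase release 5. Replicate 1 held 1425 such clusters of 7858 in its whole list, replicate 2 held 886 of 6505, and the list the authors made for the replicate set held 2607 of 15781 enriched regions. The rule left out 27, 32 and 116 clusters near the telomere of X. The last cluster outside it ended at 969374 in replicate 1 and at 968881 in replicate 2, and the first inside started at 1012993 and at 1062394.

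The series consisted of 2 Smc3 ChIP samples and 2 Input samples, all from wild-type Oregon-R larvae of instar 3, without a further treatment or allele. Chromatin of crosslinked, homogenized larvae was immunoprecipitated with an affinity-purified rabbit polyclonal antibody, Q2580, raised against residues 321 to 420 of Smc3. The labels name neither the sex of the larvae nor a tissue, so the clusters describe a mixture of cells of whole larvae. The lists of the 2 ChIP samples and of the replicate set were analysed, while values of the Input samples were not analysed here. The title and source name of replicate 2 call it ChIP, while its description names input DNA alone, so values are given for each replicate as well as together. The labels do not say that the replicates came from different larvae, so their spread may be technical. Sequencing depth is unknown here.

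Cohesin holds sister chromatids together from replication to division, and between divisions it takes part in chromosome looping and in gene control. It is loaded by Nipped-B, and in Drosophila cells it is known to occupy many transcribed genes. The X is the larger sex chromosome of the fly, single in males, where the dosage compensation complex raises its transcription. Its high-numbered end borders the pericentric heterochromatin, the repeat-rich chromatin around the centromere.

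Clusters were spread along all of X in both replicates, and replicate 1 had far more of them. From position 1000000 to the sequence end at 22422827, clusters covered 14.4% of bases in replicate 1 and 7.71% in replicate 2, with a mean of 11.1% ± 4.72 (SD, n = 2). This was 66.5 and 41.4 clusters per Mb. The replicate-set list covered 23.7% of the same stretch with 121.7 clusters per Mb. Replicate 1 therefore covered 1.87 times as much of X as replicate 2.

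Clusters on X were short, and the replicates differed in spacing more than in width. Median width was 2012 bp in replicate 1, with quartiles of 1772 and 2141 bp, and 1714 bp in replicate 2, with quartiles of 1455.5 and 1989.75 bp. The narrowest cluster in either replicate was 1301 bp wide. In replicate 1, 48.8% of clusters were between 1900 and 2200 bp wide, against 21.4% in replicate 2. Widths thus fell in a narrow band, with few much wider clusters. Only 24 clusters of replicate 1 and 10 of replicate 2 reached 5 kb.

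The median gap between neighbouring clusters was 7230.5 bp in replicate 1 and 11301 bp in replicate 2. Gaps were very unequal within each list: the quartiles were 2679 and 16556.5 bp in replicate 1 and 3898 and 29610 bp in replicate 2. In replicate 1, 154 of 1424 gaps were shorter than 1 kb, and in replicate 2, 84 of 885 were. Both very short and very long gaps thus occurred in each list. The longest gap of replicate 1 ran over 131.4 kb from 20965013 to 21096385, near the centromeric end, and 8 clusters of replicate 2 overlapped it. That of replicate 2 ran over 245.5 kb from 1971096 to 2216632, near the telomeric end, and 13 clusters of replicate 1 overlapped it. Each longest gap was thus occupied in the other list.

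The score the authors gave each cluster, read as a log2 value within its own list, had a median of 0.79 in replicate 1, ranging between 0.11 and 2.21. In replicate 2 the median was 0.74 and the range 0.28 to 3.00. Wider clusters scored higher in both lists, more clearly in replicate 1: Spearman's correlation of width and score across clusters was 0.652 over 1425 clusters and 0.277 over 886. These clusters share a library and a caller, and the values are descriptions.

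In fixed windows of 100 kb, 207 of the 215 windows of X held clusters of both replicates. On the background arms 2L, 3L and 3R, taken without their telomeric 1 Mb and centromeric 2 Mb, 92.8% of windows did. Cover per window had a median of 13.2% in replicate 1, with quartiles of 9.12% and 19.1% and a highest value of 36.7%. In replicate 2 the median was 6.39%, the quartiles 3.59% and 10.4%, and the highest value 50.7%. Clusters were thus present in nearly every window, with a long upper tail in replicate 2. A single window, from 9100001 to 9200000, lay outside the clusters of both replicates, and the replicate-set list placed 4 clusters in it.

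**Figure D1:**
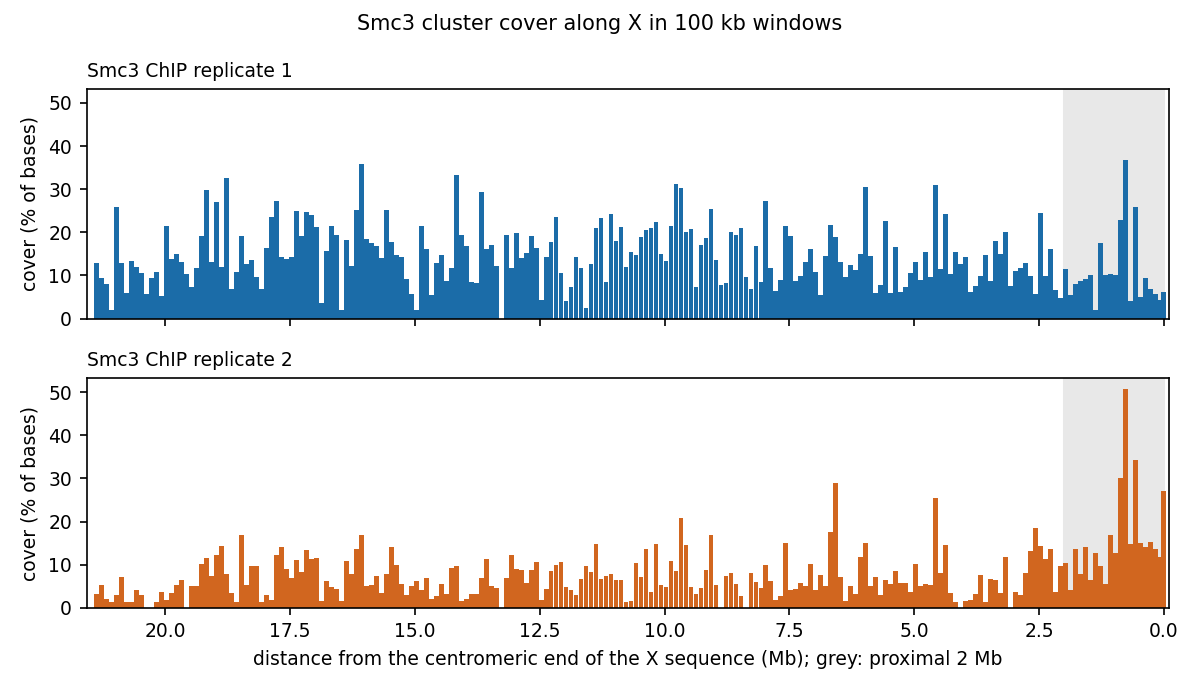
Percent of bases inside Smc3 clusters in each 100 kb window of X, for replicate 1 (top) and replicate 2 (bottom), by distance from the centromeric end of the sequence in Mb; the proximal 2 Mb is shaded grey. Replicate 1 is higher along most of the arm, and both replicates have their highest window, 36.7% and 50.7%, inside the shaded part.

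The windows that led in both replicates were few. The highest mean cover was in the window from 21600001 to 21700000, at 36.7% in replicate 1 and 50.7% in replicate 2, which ranked 1 in each list. The next was the window from 21800001 to 21900000, with 25.9% and 34.4%, which ranked 15 in replicate 1 and 2 in replicate 2. Away from the centromeric end, the window from 17800001 to 17900000 had 30.9% and 25.5% and ranked 6 in each list. The window from 21500001 to 21600000 followed with 22.9% and 30.2%, ranking 28 in replicate 1 and 3 in replicate 2. In the fifth, from 6300001 to 6400000, the replicates were further apart, at 35.9% and 17.0%. The 400 kb from 21500001 to 21900000, described below, was drawn around 3 of these 5 windows, so they lie in it by construction.

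The 5 lowest windows were all below position 9200000. After the empty window, the window from 1300001 to 1400000 had 2.06% in replicate 1 and 1.36% in replicate 2, and that from 5900001 to 6000000 had 2.02% and 1.62%. The window from 5500001 to 5600000 had 3.57% and 1.57%. The window from 2000001 to 2100000 had 5.71% in replicate 1 and none in replicate 2. In bins of 1 Mb, replicate 2 had its fewest clusters, 14, from 2000001 to 3000000, and 16 in the bin before it, where replicate 1 had 54 and 58. Replicate 1 had its most, 94, from 12000001 to 13000000, where it covered 21.6% of bases and replicate 2 covered 10.2%.

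Replicate 1 covered more than replicate 2 in 184 of the 215 windows, or 85.6%. On 2L, 3L and 3R without their ends this held in 66.0% of windows. The order turned round near the centromere, on X and on the other arms alike. Cover in replicate 1 over replicate 2 was 0.691 in the proximal 2 Mb of X, 0.772 on 2L, 0.857 on 3L and 0.823 on 3R. Without the ends it was 2.15 on X, 1.11 on 2L, 1.46 on 3L and 1.51 on 3R. In the last 20 windows of X, replicate 2 covered more in 15, whereas in the 195 windows before them it covered more in 15 as well and replicate 1 in 179. In bins of 1 Mb, the ratio of replicate 1 to replicate 2 was 4.09 from 2000001 to 3000000, 1.65 from 19000001 to 20000000, 0.952 from 20000001 to 21000000 and 0.713 from 21000001 to 22000000. The replicates thus differed along the arm as well as in level. Across the 215 windows, Spearman's correlation between replicates was 0.361 and Pearson's 0.419. Without the proximal 2 Mb, Spearman's was 0.492 over 195 windows, beside 0.413 on 2L, 0.208 on 3L and 0.256 on 3R. Pearson's was 0.509 on X, 0.525 on 2L, 0.189 on 3L and 0.437 on 3R, so X was not the highest by that measure. Windows of one library share its depth and the parts of the sequence where reads can be placed.

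**Figure D2:**
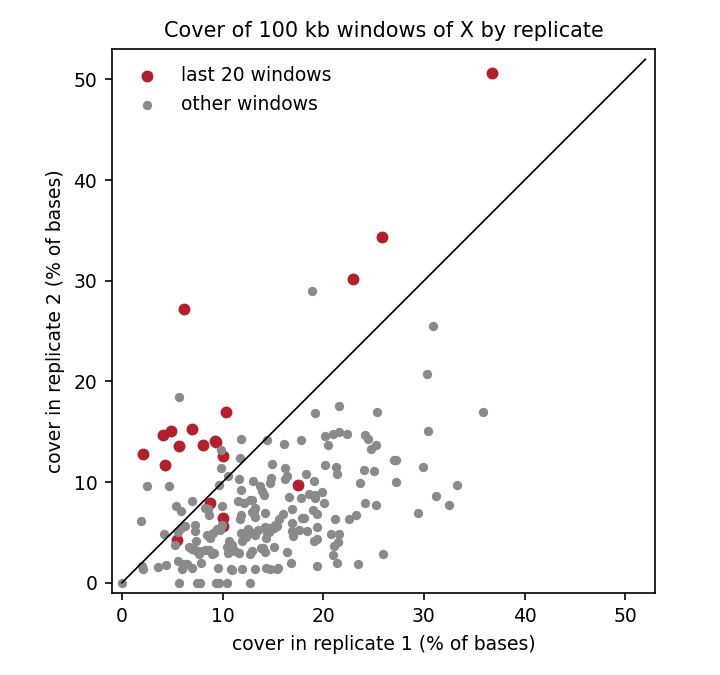
Cover of each 100 kb window of X in replicate 1 (horizontal axis, percent of bases) and replicate 2 (vertical axis), with the last 20 windows at the centromeric end in red, the others in grey and a line of equal cover. Of the last 20 windows, 15 lie above the line, against 15 of the other 195.

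Cover near the centromere of X was below that of 2L and 3L in both replicates. The proximal 2 Mb of X, from 20422828 to 22422827, was covered to 11.0% in replicate 1 and 15.9% in replicate 2, against 14.7% and 6.87% of the rest of X above 1 Mb. The same length at the centromeric end was covered to 33.5% and 43.4% on 2L, to 55.8% and 65.1% on 3L, and to 8.83% and 10.7% on 3R. On X, proximal minus rest was -3.74 percentage points in replicate 1 and 9.06 in replicate 2, a mean of 2.66 ± 9.05 (SD, n = 2). The direction thus depended on the replicate. An exact sign-flip permutation test over 2 replicates cannot give a two-sided p below 0.5, so that test could not pass the threshold for this difference or any other, and no other test between parts of X or between arms was run.

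The median score of the proximal 2 Mb was above that of the rest of X in both lists. Proximal clusters of replicate 1 had a median of 0.96, against 0.78 for the rest, and those of replicate 2 a median of 0.88, against 0.71. The same direction held on the other arms in replicate 1, at 1.00 against 0.67 on 2L, 1.07 against 0.66 on 3L and 0.65 against 0.64 on 3R. In replicate 2 it held at 0.90 against 0.70, 1.31 against 0.69 and 0.70 against 0.66. Cluster density on X went opposite ways in the lists. It was 49.5 clusters per Mb in the proximal part against 68.3 in the rest in replicate 1, and 74 against 38.0 in replicate 2. These differences were not tested.

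**Figure D3:**
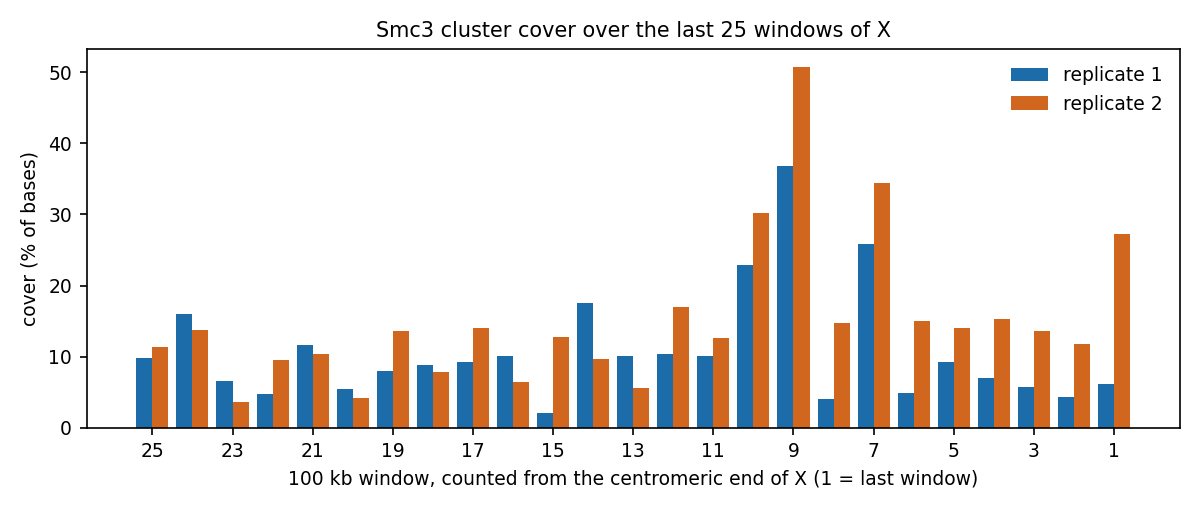
Percent of bases inside Smc3 clusters in the last 25 windows of 100 kb on X, counted from the centromeric end (window 1, which holds only 22.8 kb, is at the right), with replicate 1 in blue and replicate 2 in orange. Among these 25 windows, 10, 9 and 7 stand above the rest in both replicates, at 22.9% to 36.7% in replicate 1 and 30.2% to 50.7% in replicate 2, and window 8 between them has 4.09% and 14.7%.

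Cover within the proximal part was uneven. A stretch of 400 kb from 21500001 to 21900000, singled out after its values were seen, was covered to 22.4% in replicate 1 and 32.5% in replicate 2, which was 1.52 and 4.73 times the cover of X outside the proximal 2 Mb. It held 40.7% and 40.8% of all covered bases of the proximal 2 Mb. Cover of the proximal 2 Mb without it was 8.15% in replicate 1 and 11.8% in replicate 2. The stretch was itself broken: the window from 21700001 to 21800000 had 4.09% and 14.7%. Median scores in it were 1.07 over 33 clusters of replicate 1 and 1.25 over 43 clusters of replicate 2. From 21900001 to the end of the sequence, cover in whole windows returned to between 4.32% and 9.31% in replicate 1 and to between 11.7% and 15.3% in replicate 2. The last window, only 22.8 kb long, had 6.14% and 27.2%. The final clusters ended 9.01 kb before the sequence end in replicate 1 and 1.37 kb before it in replicate 2.

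Loci called in both replicates numbered 523 on X, a locus being a run of overlapping clusters with at least 1 from each list. That was 24.4 loci per Mb. They included 37.5% of the replicate 1 clusters (534 of 1425; 95% exact Clopper-Pearson interval 35.0 to 40.0) and 61.7% of the replicate 2 clusters (547 of 886; 58.4 to 65.0). On X without its proximal 2 Mb the shares were 35.3% and 65.2%, and on 2L, 3L and 3R trimmed in the same way they were 36.4% for replicate 1 and 43.0% for replicate 2. The intervals cover counting error only, and a share rises with the cover of the other list. In bases, 962.8 kb of X lay inside clusters of both replicates, which was 31.2% of what replicate 1 covered and 58.3% of what replicate 2 covered.

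Most loci were 1 cluster in each list placed at nearly the same point. Of the 523 loci, 495 held exactly 1 cluster of each replicate. Their midpoints lay a median of 197 bp apart, and 77.0% were within 500 bp. The signed offset, replicate 2 minus replicate 1, had a median of -4 bp. The stretch common to both clusters had a median of 1709 bp over all loci. Neighbouring loci were a median of 24.0 kb apart, and the largest distance between neighbours was 252.2 kb. Midpoints were thus close where a locus was shared, but a shared locus requires overlap, which by itself limits their distance. How close they would be from that rule alone was not tested. Scores were only weakly related: across the 495 pairs, Spearman's correlation of the scores was 0.117 and Pearson's 0.179. It was 0.0935 over 441 pairs outside the proximal 2 Mb and 0.269 over 54 pairs inside it (Spearman).

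The relation of score to sharing ran opposite ways in the lists. In replicate 1, 66.3% of the 25% of X clusters with the highest scores (236 of 356; 95% exact interval 61.1 to 71.2) and 18.5% of the lowest 25% (66 of 357; 14.6 to 22.9) overlapped a replicate 2 cluster. In replicate 2, 50.5% of the highest 25% (112 of 222; 43.7 to 57.2) and 81.1% of the lowest 25% (180 of 222; 75.3 to 86.0) overlapped a replicate 1 cluster. Over the whole stretch, a low score in replicate 2 therefore went with presence in replicate 1, and a high score in replicate 1 with presence in replicate 2. The proximal 2 Mb was an exception for replicate 2: its 66 shared clusters there had a median score of 0.98, against 0.86 for the 82 unshared ones. The same opposition held on 2L, 3L and 3R, at 60.4% and 22.6% for the highest and lowest 25% of replicate 1, and 34.8% and 61.9% for those of replicate 2. Shared clusters were the wider ones in both lists, but a wider cluster meets the overlap rule of 1 bp more readily. How much of the difference in width comes from that rule was not tested. On X their median width was 2084 bp against 1977 bp for unshared clusters in replicate 1, and 1795 bp against 1541 bp in replicate 2. Median scores were 0.94 for shared and 0.73 for unshared clusters in replicate 1, and 0.70 and 0.79 in replicate 2.

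**Figure D4:**
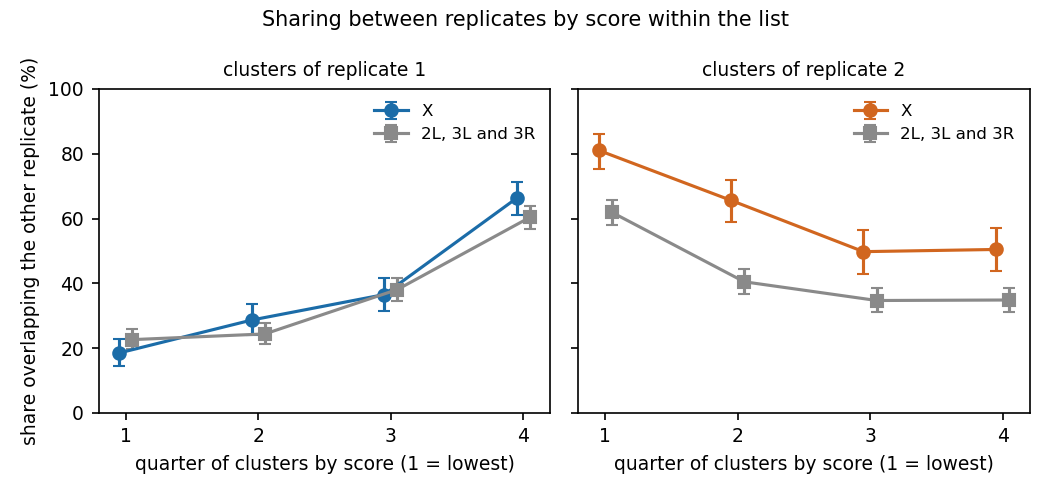
Percent of clusters that overlap a cluster of the other replicate, in 4 equal groups of the list ranked by score (1 lowest, 4 highest), for X (coloured) and for 2L, 3L and 3R without their ends (grey); bars are 95% exact binomial intervals, which cover counting error only. On X the share is 18.5% in the lowest and 66.3% in the highest group of replicate 1, and 81.1% and 50.5% in those of replicate 2.

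Along the arm, sharing was highest for replicate 2 clusters at the telomeric side and for replicate 1 clusters at the centromeric side. All 16 replicate 2 clusters from 1000000 to 2000000 overlapped a replicate 1 cluster, while 29.3% of the 58 replicate 1 clusters there overlapped one of replicate 2. From 21000001 to 22000000 the shares were 54.8% of 84 replicate 2 clusters and 79.3% of 58 replicate 1 clusters. In each case the list with fewer clusters had the higher share.

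Many of the loci with high scores in both lists lay near the centromere. Ranked by the lower of their score percentiles among X clusters, 15 loci reached the top 10% of both lists. Of these, 7 lay in the 400 kb from 21500001 to 21900000, which is 1.87% of the stretch examined and held 23 of all 523 loci. Those 400 kb were picked for high cover in these same lists, so counts within them are not independent of that choice. The first locus in rank ran from 21775122 to 21779191, which replicate 1 held as 1 cluster scoring 2.10 and replicate 2 as 2 clusters, the higher scoring 1.74. The second lay outside the proximal part, from 18132297 to 18134554, with scores of 1.80 and 1.63 and a stretch of 2141 bp common to both lists. These were among the strongest 2% of X clusters in each list.

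The third was a wide locus in the middle of the arm, from 11088329 to 11095815, with scores of 1.63 in replicate 1 and 1.5 in replicate 2 and clusters of 6134 and 7215 bp. The locus from 21835596 to 21846793 had scores of 1.43 and 1.31 and held 2 clusters of each replicate. The locus from 21500243 to 21504891 scored 1.42 and 1.75. Of these, the locus in the middle of the arm coincided over the longest stretch, 5862 bp.

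The locus from 21607657 to 21611188 had scores of 1.71 and 1.25, but its clusters touched over only 182 bp. The locus from 4824276 to 4830396, nearer the telomere, scored 1.41 and 1.46, with clusters of 6099 and 5969 bp. The last of the 8, from 21522570 to 21525392, scored 1.37 and 2.13. Of the 8 loci, 5 lay in the 400 kb stretch. In all 8 the replicate-set list held 1 cluster, with scores between 1.03 and 1.79. Its presence does not set them apart, since all 523 loci held a replicate-set cluster.

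By length, the stretch inside 1 cluster of each replicate was longest within the locus from 21668974 to 21687225, at 8605 bp. That locus held 3 clusters of replicate 1 and 4 of replicate 2, with highest scores of 1.22 and 1.80, and the replicate-set list joined it into 1 cluster of 18.1 kb, its widest on X. The locus from 6917493 to 6924652 had 6961 bp in common, as 1 cluster in each list of 7077 and 7044 bp with scores of 1.31 and 1.60. The next were the loci starting at 4824276, with 5947 bp, and at 11088329, with 5862 bp, both given above. Wide Smc3 clusters present in both replicates thus also occurred away from the centromere: of the 10 loci with the longest common stretch, 7 lay outside the proximal 2 Mb. The other 3 lay inside it, where 60 of all 523 loci lay. The widest cluster of replicate 1 alone, 9.99 kb from 21670965 to 21680953, fell in the locus starting at 21668974. That of replicate 2, 9.34 kb from 21633341 to 21642681, ended 28.3 kb before the replicate 1 cluster began. Clusters of at least 8000 bp, 1 in replicate 1 and 3 in replicate 2, all lay in the proximal 2 Mb.

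The single highest score of each replicate was not shared. It was 2.21 in replicate 1, for the cluster from 10076005 to 10078146, and 3.00 in replicate 2, for the cluster from 21758760 to 21760659, and neither overlapped a cluster of the other replicate.

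X was covered more than each of 2L, 3L and 3R in replicate 1 and lay within their range in replicate 2. Without the proximal 2 Mb, X was covered to 14.7% in replicate 1, while 2L, 3L and 3R without their ends were covered to between 8.87% and 9.57%. In replicate 2, X was covered to 6.87% and the other arms to between 6.08% and 8.29%. X minus the mean of the 3 arms was 5.52 percentage points in replicate 1 and -0.0426 in replicate 2, a mean of 2.74 ± 3.93 (SD, n = 2), so the difference was smaller than the spread between replicates. The replicate-set list gave 2.30 percentage points.

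Number and spacing followed the same pattern, and width did not. X had 68.3 clusters per Mb in replicate 1 against 43.5 to 47.3 on the other arms, and 38.0 in replicate 2 against 34.5 to 46.1. The median gap on X was 6858 bp in replicate 1 against 10863 to 12268.5 bp, and 13414 bp in replicate 2 against 11024 to 15295 bp. Median width on X was 2012 bp against 1981.5 to 1999 bp in replicate 1, and 1695 bp against 1595.5 to 1647 bp in replicate 2. The excess of X in replicate 1 was therefore mainly one of more clusters: X had 1.51 times the mean clusters per Mb of the other arms and 1.60 times their mean cover. Wide clusters were also more numerous on X in replicate 1, where 21 of 1326 clusters reached 5 kb. The counts were 11 of 891 on 2L, 8 of 938 on 3L and 7 of 1177 on 3R. Replicate 2 did not repeat this, with 5 of 738 on X and 9 of 922 on 2L. It had 2 of 744 on 3L and 2 of 895 on 3R. Replicate 1 held 1.80 times as many clusters as replicate 2 on this part of X, and 0.966 times as many on 2L, 1.26 on 3L and 1.32 on 3R.

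Scores on X were the highest of the 4 arms in both lists. The median was 0.78 on X against 0.64 to 0.67 on the other arms in replicate 1, a difference of 0.12 from their mean, and 0.71 against 0.66 to 0.70 in replicate 2, a difference of 0.03. Loci found in both replicates were also denser on X outside the proximal 2 Mb, at 23.8 per Mb, than on 2L at 17.6, 3L at 14.8 and 3R at 16.1. Of the replicate 2 clusters there, 65.2% on X were shared with replicate 1, against 39.5% on 2L, 43.4% on 3L and 46.3% on 3R. Of the replicate 1 clusters, 35.3% on X were shared, against 41.1%, 34.1% and 34.6%. The higher sharing of replicate 2 clusters on X stood beside the higher cover of X in replicate 1; how much of it that cover accounts for was not tested.

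**Figure D5:**
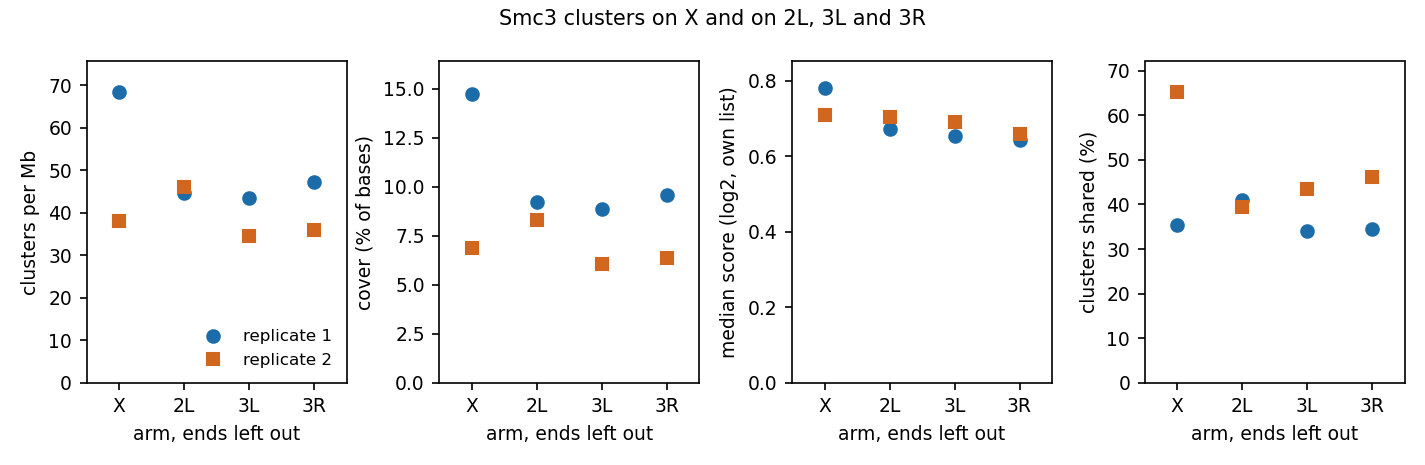
Clusters per Mb, percent of bases covered, median score (log2, within each list) and percent of clusters shared with the other replicate, for X without its telomeric 1 Mb and proximal 2 Mb and for 2L, 3L and 3R trimmed the same way; circles are replicate 1 and squares replicate 2. X lies above the other arms in replicate 1 for the first 3 measures, at 68.3 clusters per Mb and 14.7% cover, and in replicate 2 its shared percentage, 65.2%, is the highest.

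The replicate-set list divided X clusters by their presence in the replicates. Of its 2607 clusters, 527 or 20.2% (95% exact interval 18.7 to 21.8) were found in both, 837 in replicate 1 alone and 300 in replicate 2 alone. The other 943, or 36.2% (34.3 to 38.1), were found in neither. On 2L, 3L and 3R without their ends, 13.9% were found in both and 45.8% in neither. The sets differ, as the X values include its proximal 2 Mb, and the intervals cover counting error only. Clusters found in both were the wider and higher ones, with medians of 2427 bp in width and 0.71 in score. They made up 30.7% of the bases this list covered on X. A wider cluster is also more readily met by clusters of the replicates, and that share was not tested. Those found in neither had a median width of 1211 bp and a median score of 0.55. For clusters found in replicate 1 alone these medians were 1967 bp and 0.48, and for replicate 2 alone 1743 bp and 0.56. The lowest median score was thus that of replicate 1 alone. In the proximal 2 Mb, 60 of the set's clusters were found in both replicates, 33 in replicate 1 alone, 70 in replicate 2 alone and 115 in neither.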

How the data were processed

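The authors deposited 1 list of enriched regions for each Smc3 ChIP replicate and 1 for the replicate set, with start, end and a score. The submitters' processing notes name Bowtie 0.12.7, an aligner, and the file headers give FlyBase release 5 as the genome build. How regions were called, at which thresholds, and how repeated sequence was treated is not given in the sources used here. The deposited score is read as log2 because, in the replicate-set list on X, 2 to its power divided by 1 constant was a ratio of whole numbers with a denominator up to 3000 for 100% of clusters (tolerance 1e-11). What the ratio compares is not stated. Samples were grouped by title, and 2 regions of the replicate-set list that the file calls depleted were left out.

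Cover is the percent of bases inside the union of clusters. Clusters were shared when they overlapped by at least 1 bp. Windows of 100 kb start just after position 1000000, and the last holds 22.8 kb. The centromeric end is the high end of X, 2L and 3L and the low end of 3R. Named regions were the 8 loci with the highest lower percentile, the 4 with the longest common stretch, the widest cluster and longest gap per list, and the 5 highest and 5 lowest windows; other regions were chosen after their values were seen. Members, windows and named-region rules were chosen with earlier results of these data known. No genome or annotation of release 5 was used here, so no genes or sequences are given. Functions were checked on simulated lists. Alternatives were a stricter score, merging, other overlap rules, windows and end lengths, each replicate alone and the replicate-set list. Scripts ran in Python 3.11.15 with scipy 1.17.1, pandas 2.3.3, numpy 2.4.6 and matplotlib 3.10.9.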

Additional observations from a re-analysis of the deposited data

How the results depend on the processing

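Over 9 results and 37 alternatives other than leaving out a replicate, 22 values were counted as the same, 13 as moved and 2 changed sign. The limit for a move was the spread between replicates, or 1.5 times for a count. The window correlation is a single value with no such spread and is no count, so its labels rest on neither limit. The spread between replicates is wide: with the centromeric ends kept, for example, X minus the other arms was 0.543 percentage points (3.12 in replicate 1 and -2.04 in replicate 2), against 2.74 as reported. With clusters at or above the median X score of their list, cover was 6.24%, the median gap 17138 bp, the median score 0.93, the mean shared percentage 30.8%, the loci in both replicates 162 and the window correlation 0.313; fewer clusters enter by construction. The replicate-set list gave a cover of 23.7%, a median gap of 3543 bp and a median score of 0.55. The window correlation was 0.462 with windows of 50 kb, 0.316 with 500 kb, 0.524 with windows shifted by 50 kb and 0.492 without the proximal 2 Mb. For these and for the sign changes below, the cause was not tested. X minus the other arms was -0.0426 percentage points without replicate 1 and 5.52 without replicate 2. Proximal minus rest was 9.06 without replicate 1 and -3.74 without replicate 2, -0.212 with a proximal part of 500 kb, and -0.830 without the 4 windows from 21500001 to 21900000, a setting chosen after seeing the data. With each replicate left out in turn, where the mean of 2 values cannot move beyond their SD, cover ran from 7.71% to 14.4%, the median gap from 7230.5 to 11301 bp, the median width from 1714 to 2012 bp and the median score from 0.74 to 0.79. Sharing, loci and the window correlation need both replicates and could not be recomputed with one left out. No paired analysis was possible because the results come from no test between groups of samples, values of the Smc3 ChIP group alone being analysed here. Depth is unknown, so a cluster present in 1 list alone may be below the calling limit of the other.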

Other observations

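The highest scores of the replicate-set list on X were mostly ratios of small whole numbers. Of its 20 highest-scoring X clusters, 14 touched no cluster of a replicate, against 943 of all 2607. Found in both replicates were 2 of the 20, against 527 of all 2607. The median width of the 20 was 1022 bp, and 8 of them had the minimum width of the list, 1001 bp. That width was shared by 63 of all 2607. After division by the most repeated linear value of the list, 1.33, the highest score, 3.41 for the cluster from 11430192 to 11431192, was a ratio of 8 to 1, and 3 clusters shared the score 2.73, a ratio of 5 to 1. The sum of both parts of the reduced ratio had a median of 9.5 over the 20 clusters and 294 over all X clusters of the list; the sum depends on the constant chosen and loses common factors. Of the 20, 11 lay in the 400 kb from 21500001 to 21900000, which held 52 of all 2607 and had been picked for its high cover in the replicates.

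Scores repeated exactly on X: 339 clusters of replicate 1, 250 of replicate 2 and 771 of the replicate set had a score that another X cluster of the same list also had. All 2607 replicate-set clusters on X started at an even position, against 687 of 1425 in replicate 1 and 441 of 886 in replicate 2.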
